A study of Caenorhabditis elegans with 15 samples.

Results

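Transcript levels of Caenorhabditis elegans labelled mec-8 (e398) KO, here called e398, were compared with those of wild-type N2 animals, gene by gene, across 17398 of the 46926 genes in the deposited table. A gene entered when its average was at least 20 normalized counts in either genotype, and its ratio was taken as log2((e398 + 1)/(wild type + 1)). The series holds 15 polyA RNA-seq libraries of whole animals at the L4 larval stage, the last larval stage before adulthood. Of these, 6 were wild type, 3 were e398, and 3 each were labelled u74 KO and u218 KO, which appear here only beside single e398 values and share the wild-type column with them. The strain label is N2 for every group, no treatment is given, and neither the kind of lesion nor the number of animals per library is stated. In RNA from whole animals, fewer cells of a type and less RNA per cell cannot be told apart.

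The MEC-8 protein carries RNA recognition motifs, binds RNA and controls alternative splicing. Its described targets include transcripts of unc-52, the perlecan of the muscle basement membrane, of mec-2, a stomatin-like protein of the touch channel, of fbn-1, a fibrillin-related epidermal matrix protein, and of sad-1, a kinase of neuronal polarity. Animals lacking mec-8 function are known for touch insensitivity, defects of sensory neurons and weak attachment of body wall muscle. Deposited values pool all splice forms of a gene.

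The table holds 1 average per genotype, with totals of 97187743 normalized counts in wild type and 126747904 in e398. Whole reads of single libraries could be recovered where the wild-type average was under 8 or the e398 average under 500, and the recovered libraries are numbered by falling size factor, not by label. The wild-type libraries fell into unlike sets. Among 3265 genes with a wild-type average of 2 to 8, libraries 4 to 6 all exceeded libraries 1 to 3 for 1109 genes, and the reverse held for 225. Size factors were 0.471 to 0.531 in libraries 4 to 6, 1.59 to 1.82 in libraries 1 to 3, and 0.476 to 0.685 in e398. Among the e398 libraries, library 2 stood apart. It was 4-fold or more away from libraries 1 and 3 for 13.3% of 7758 genes, against 1.70% for library 1 and 2.94% for library 3. Nothing in the labels says that the libraries came from separate cultures, so every spread given here may be technical.

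Lower transcripts outnumbered higher ones in e398. Of the 17398 genes, 3466 (19.9%) were at least 2-fold lower and 1987 (11.4%) at least 2-fold higher, and these limits are what "lower" and "higher" mean in the counts of genes given for each group. At 4-fold the counts were 1342 (7.71%) and 400 (2.3%). The median ratio was -0.05, and 68.7% of genes lay within 2-fold. These averages carry no replicate error and were not tested. Single e398 libraries were available for 7758 genes, a choice by low e398 average that favours lower genes. Every e398 library was at least 2-fold below the wild-type average for 1738 of them (22.4%), which is 73.2% of the 2374 lower genes with recovered reads. Every e398 library was at least 2-fold above it for 192 (2.47%), or 22.2% of the 864 higher genes with recovered reads. Of the 7758, 23 genes (0.296%) had every e398 library at more than 6 times the average of wild type, which no single wild-type library can exceed.

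**Figure D1:**
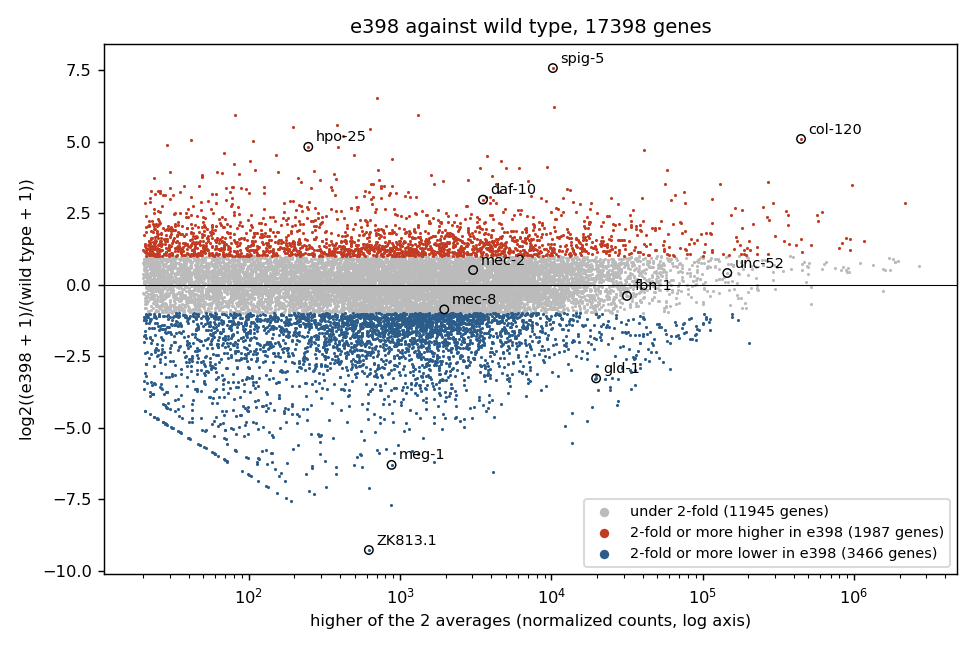
Ratio of e398 to wild type (vertical axis, log2) against the higher of both averages (horizontal axis, normalized counts, log scale) for the 17398 genes, 1 point per gene. The 1987 higher genes are red and the 3466 lower genes blue; mec-8 and its targets mec-2, unc-52 and fbn-1 lie inside the grey 2-fold band, and spig-5 (ratio 7.57) and ZK813.1 (ratio -9.28) mark its far ends.

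The mec-8 gene itself (WBGene00003172; WBcel235 chromosome I, 9441010 to 9444227, minus strand) averaged 1956 normalized counts in wild type and 1069.7 in e398, a ratio of -0.87. Transcript was present in the group labelled KO, and a lesion need not remove it, so the level did not check the label. None of the 4 described targets reached 2-fold as a whole gene. The ratio was 0.40 for unc-52, 0.51 for mec-2, 0.41 for sad-1 and -0.40 for fbn-1. Of 15 tissue-specific splicing regulators 1 was lower and 0 higher. The lower one was mbl-1, the muscleblind homolog, at 3407 in wild type and 757 in e398. The hnRNP A gene hrpa-1 was at 52582 and 84416, and asd-2, a STAR-family regulator of splicing, had a ratio of 0.75.

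Genes of the core splicing machinery were often lower. Of 38 core spliceosome and SR protein genes 19 were lower and 0 higher, with a median ratio of -1.01. The genes snr-5 and snr-7, for small Sm-family proteins of the snRNP core, stood lowest at -3.42 and -3.30. The 3 e398 libraries read 175, 179 and 147 for snr-5, against a wild-type average of 1793. For snr-7 they read 165, 191 and 130.4, against 1603. The libraries differed little among themselves, and all lay far below the wild-type average. Genes for large U5 snRNP proteins were close to wild type, with prp-8 at 35354 and 34099.9 and snrp-200 at 25579 and 24607. Of 11 nonsense-mediated decay genes 1 was lower, smg-5 (-1.02), a factor that acts on the helicase SMG-2.

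Touch receptor neuron genes lay near their wild-type level. Of 18 genes 1 was higher and 0 lower, with a median of 0.18. The alpha tubulin gene mec-12 averaged 34999 and 47664, the beta tubulin gene mec-7 15100.5 and 14503, and the tubulin acetyltransferase gene mec-17 15261 and 17409. The one higher gene, mec-14, was at 23.4 in wild type and at 74.5, 52.6 and 27.3 in the e398 libraries, so it was not 2-fold higher in each.

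Muscle, its basement membrane and its epidermal anchors also showed few differences, with exceptions among single genes. Of 34 body wall muscle genes 3 were lower and 0 higher (median -0.21). The muscle myosin gene unc-54 averaged 689726 and 924330.0 and the paramyosin gene unc-15 649147 and 1087270.0. The lower ones included unc-22, which encodes the giant kinase twitchin, at 32935 and 9725, and unc-60, which encodes cofilin, at 4942 and 1591. Of 10 epidermal attachment genes 0 were lower and 0 higher; the ratio was 0.63 for mua-3 and 0.68 for mup-4, both matrix-receptor genes of these anchors. Of 18 basement membrane genes 3 were lower and 0 higher, a lower share of 16.7% beside 19.9% of all genes. The 2 that were 4-fold lower were laminin chain genes. The beta chain gene lam-1 averaged 13566 and 1718, and the gamma chain gene lam-2 11199 and 2192. The type IV collagen genes let-2 (0.78) and emb-9 (0.08) were not lower.

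Cilium genes were higher as a group. Of 46 genes for intraflagellar transport and other ciliary parts, 25 were higher and 2 lower, with a median ratio of 1.06. The gene daf-10 (WBGene00000906; chromosome IV, 9136933 to 9146211, minus strand), a transport particle subunit, averaged 449.8 in wild type and 3529.7 in e398. The particle subunit gene osm-5 averaged 1930.2 and 8653, and osm-1, another, 1296 and 3057. Of the 4 higher ciliary genes with recovered reads, 2 were at least 2-fold higher in every e398 library. The exceptions were dyf-17, at 174 in wild type and 39.4, 11.5 and 29.4 in the e398 libraries, and tba-5, a ciliary alpha tubulin gene, at 53.7 and 16.1, 19.7 and 6.31. Both were below the wild-type average in all 3 libraries. Among the 19 ciliary genes with recovered reads the median ratio was 0.18 in library 1, 0.97 in library 2 and 0.50 in library 3.

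Genes that act downstream of sensory receptors were mostly within 2-fold. Of 17 sensory transduction genes 0 were higher and 1 lower. That gene was grk-2, a receptor kinase, at 639.8 in wild type and 126, 164 and 86.2 in the e398 libraries. Of 30 receptor guanylate cyclase genes 2 were higher and 0 lower (median 0.36), but the median over 21 of them by library was 0.10, 0.83 and -1.01, so libraries disagreed in direction. Chemoreceptor genes, the large families of candidate odour and pheromone receptors, had a median of 0.64, with 78 of 259 higher and 6 lower. Of 75 higher chemoreceptor genes with recovered reads, 15 were at least 2-fold higher in every library, a share near the 22.2% over all such genes. These are low transcripts: srh-239 was at 1.03 in wild type and at 13.1, 8.21 and 69.4 in e398, and srh-207 at 3.38 and 42.4, 6.57 and 92.5. Of 15 genes of sensory glia and their matrix 2 were higher, dyf-7 at 922 and 3333 and che-14 at 3713 and 8341; dyf-7 anchors dendrite tips during their growth. One of the 15 was lower, ver-1, a glial receptor kinase gene, at 27.7 and 9.68.

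Peptide signals were lower in part. Of 30 FMRFamide-like peptide genes 14 were lower and 0 higher, the median was -0.77, and 10 of the 14 were lower in every library, a share like the 73.2% over all lower genes with recovered reads. The gene flp-24 was at 545 in wild type and at 81.8, 90.3 and 54.7 in e398, while flp-8 had a ratio of 0.94. Of 67 neuropeptide-like protein genes 26 were lower and 5 higher, with a median of -0.67. The gene nlp-51 was at 158 in wild type and 5.84, 3.29 and 21.03 in e398. The gene nlp-32 had the highest ratio (3.33) but was uneven, at 97.8, 3.29 and 187 in the e398 libraries. Of 29 insulin-like peptide genes 9 were lower and 2 higher. The lowest, ins-31, averaged 261 in wild type and read 0, 0 and 6.31 in e398, and daf-28, which encodes an insulin that promotes reproductive growth, averaged 315 and read 30.7, 62.4 and 71.5. These are short genes, with median exonic lengths of 644.5 bases for FMRFamide-like peptide, 533 for neuropeptide-like protein and 459 for insulin-like peptide genes. Their lower shares of 46.7%, 38.8% and 31.03% stood beside 38.7% of all protein-coding genes under 500 bases and 32.3% of those from 500 to under 1000 bases. Of 7 neuropeptide processing genes 1 was higher and 0 lower; aex-5, a proprotein convertase gene, was at 59157 and 169357. Of 39 synaptic genes 4 were lower and 0 higher. The 4 included unc-63, a subunit of the levamisole-sensitive acetylcholine receptor, with libraries at 90.5, 52.6 and 63.1 against a wild-type average of 256.

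**Figure D2:**
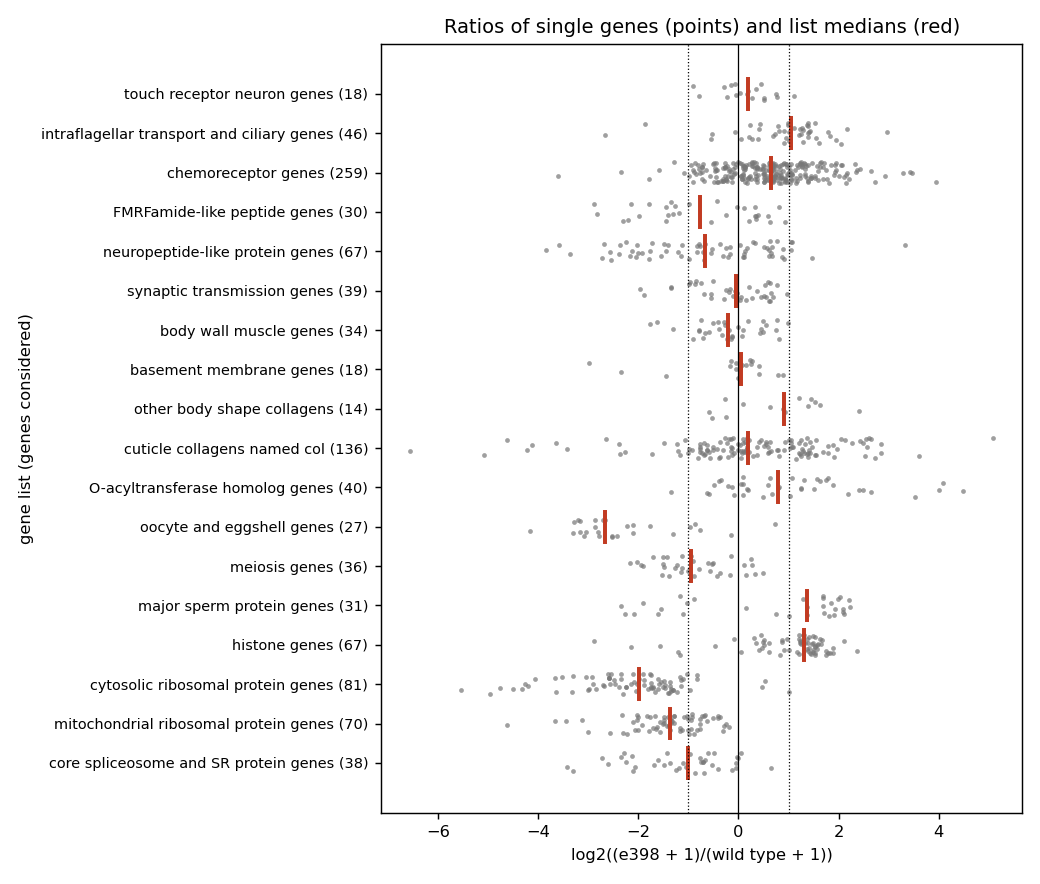
Ratio of e398 to wild type (horizontal axis, log2) for each considered gene of 18 lists (grey points), with the list median (red bar) and 2-fold limits (dotted lines); the number of genes stands after each list name. Oocyte and ribosomal protein genes lie to the left, with medians of -2.66 and -1.98, and ciliary, histone and major sperm protein genes to the right, with medians of 1.06, 1.32 and 1.38.

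Oocyte transcripts were lower, and other germline lists were so in part. Of 27 oocyte and eggshell genes 22 were lower and 0 higher, with a median of -2.66. All 8 lower ones with recovered reads were lower in every library, beside 73.2% over all lower genes with recovered reads. The translational regulator pos-1 averaged 4645 in wild type and read 315, 187 and 269 in e398. The germ granule gene meg-1 (WBGene00010492; chromosome X, 13927036 to 13929634, minus strand) averaged 878 and read 16.1, 1.64 and 12.6, and its neighbour meg-2 averaged 160.5 and read 23.4, 11.5 and 21.03. Not every oocyte gene was low. The yolk receptor gene rme-2 had a ratio of -0.15, and mbk-2, a kinase of the oocyte-to-embryo transition, of 0.74. Of 36 meiosis genes 17 were lower and 0 higher, him-3, an axis protein of the paired chromosomes, at 2910.0 and 715. Of 47 small RNA and germ granule genes 11 were lower and 0 higher, or 23.4%, close to the 19.9% of all genes; the helicase gene glh-1 had a ratio of 0.28 and the Argonaute gene csr-1 of -1.42. Of 42 DNA replication and cell cycle genes 14 were lower and 0 higher, with cye-1, the cyclin E gene, at 3591 and 415, 342 and 449.99, and cdk-2, its kinase partner, at 647 and 61.3, 64.1 and 27.3. Across 5 general germline markers (gld-1, fbf-1, glh-1, pgl-1 and him-3) 2 were lower and the summed level was 105006 in wild type and 90855 in e398. That sum is mostly glh-1, at 59828 and 72507.5, and it hides opposite directions. The gene gld-1 averaged 19735 and 2030, pgl-1 18524.5 and 9571, and fbf-1 4009 and 6032. The part of germline size or timing in these differences was not tested.

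Sperm and histone transcripts depended on the library. Among the 31 genes for major sperm proteins 19 were higher, 9 were lower and the median was 1.38; their sequences are so alike that reads may be shared among them. Of 60 other sperm genes 6 were higher and 8 lower. Over the 18 of these with recovered reads, the median ratio was 0.28 in library 1, -2.23 in library 2 and 0.46 in library 3. Histone genes, another family of near-identical copies, had 44 of 67 higher and 5 lower (median 1.32). Over 31 of them the median ratio was 1.76 in library 1, 0.19 in library 2 and 1.73 in library 3. Of 24 higher histone genes with recovered reads 2 were 2-fold higher in every library, beside 22.2% over all higher genes with recovered reads. The variant genes htz-1, which encodes H2A.Z, and his-74, for an H3.3-like variant, went the other way, at -2.14 and -2.89. Yolk genes were split, with vit-3 and vit-4 higher (1.77 and 1.09) and vit-5 and vit-6 lower (-1.38 and -2.06).

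**Figure D3:**
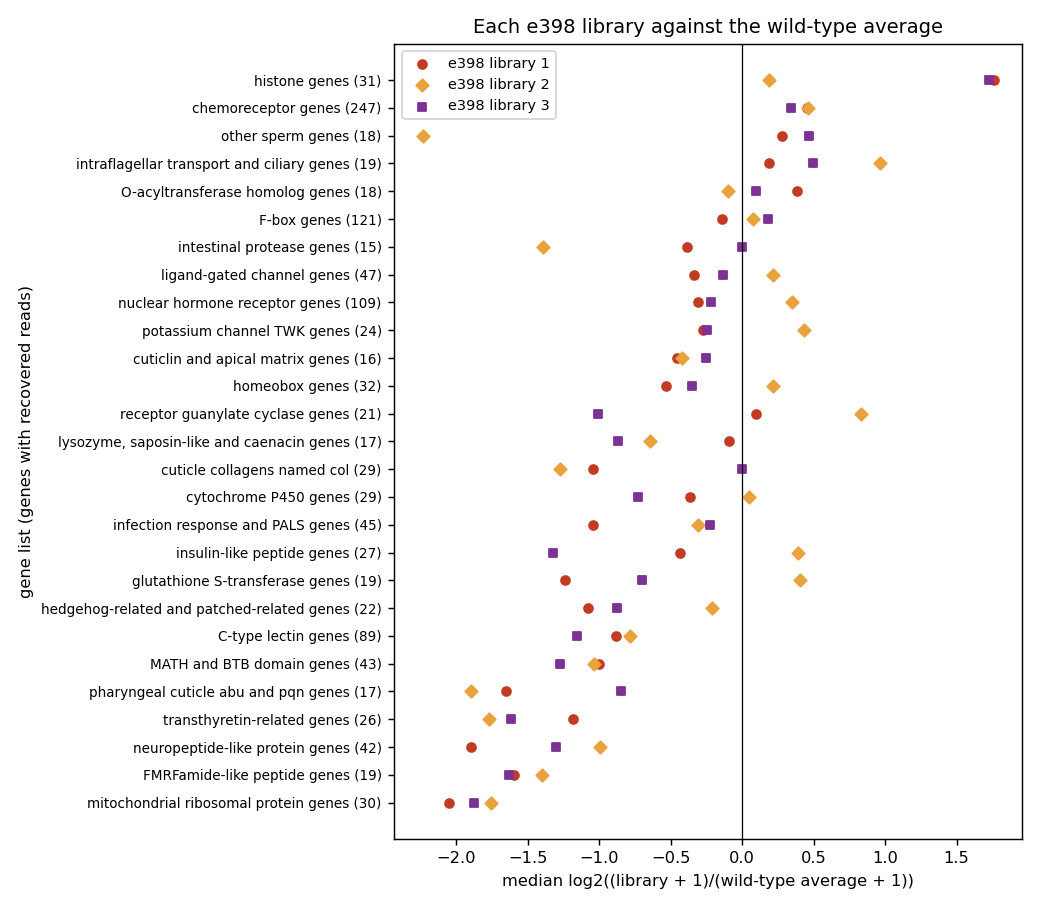
Median ratio of each e398 library to the wild-type average (horizontal axis, log2) for lists with at least 15 genes whose reads were recovered (number after the name). Library 2 (diamonds) lies apart for histone, other sperm and intestinal protease genes, and the 3 libraries lie close together for mitochondrial ribosomal protein (-2.05, -1.76 and -1.88) and FMRFamide-like peptide genes.

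Genes of the ribosome and of the respiratory chain were often lower, other genes of protein synthesis less uniformly so, and in the 6 lists split by length the short genes had lower ratios than the long ones. Of 81 cytosolic ribosomal protein genes 75 were lower and 1 higher (median -1.98). Short genes stood low, for example rpl-29, which averaged 13593 in wild type and read 237, 369.6 and 271 in e398. The gene rps-28 averaged 12317 and read 280.4, 494 and 412. The one gene counted as higher, rpl-42, had a ratio of 1.00, and rpl-7A one of 0.52. Of 70 mitochondrial ribosomal protein genes 48 were lower and 0 higher. Of 30 lower ones with recovered reads 27 were lower in every library, beside 73.2% over all lower genes with recovered reads. Among the mitochondrial ribosomal protein genes with an exonic length under 1000 bases 41 of 48 were lower (median -1.49). Among the longer ones it was 7 of 22 (median -0.77). Length was not the whole order, since the lowest, mrpl-45 (2140 bases), averaged 1669 and read 49.7, 103.5 and 48.4. Of 41 translation factor genes 15 were lower and 0 higher. Aminoacyl-tRNA synthetase genes, at 3 lower of 32, and ribosome biogenesis genes, at 2 of 26, had lower shares below the 19.9% of all genes.

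The same split by length was present in other complexes. Of 48 respiratory chain and ATP synthase genes 27 were lower and 0 higher; below 1000 bases 22 of 24 were lower, and above it 5 of 24. The ATP synthase alpha gene atp-1 had a ratio of 0.52, and cox-7C, a small cytochrome oxidase subunit gene, of -3.67. For the core spliceosome, all 10 genes under 1000 bases were lower (median -2.31), against 9 of 28 longer ones (median -0.71). Proteasome genes gave 10 of 13 and 5 of 20, and V-ATPase genes 4 of 7 and 0 of 13. Spearman's rho between exonic length and ratio across the genes of a list was 0.79 for cytosolic ribosomal proteins (81 genes), 0.66 for respiration (48), 0.52 for mitochondrial ribosomal proteins (70), 0.83 for the spliceosome (38), 0.74 for the proteasome (33) and 0.82 for the V-ATPase (20). These values describe genes measured in the same libraries, which are not independent replicates. Over all 16107 protein-coding genes rho was 0.10.

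Among all protein-coding genes the lower share fell with exonic length, from 38.7% of 1298 genes under 500 bases and 32.3% of 3860 genes of 500 to under 1000 bases to 17.3%, 12.5% and 11.4% in the next classes and 7.01% of 385 genes of 5000 bases or more. The higher share fell too, from 16.8% to 3.38%, so both shares were highest in the shortest class. Over the genes with recovered reads, the median ratios of the 3 e398 libraries were -0.95, -1.24 and -0.88 under 500 bases and -0.44, -0.22 and -0.37 from 1000 to under 1500 bases. The order did not go on with length: from 2500 to under 5000 bases they were -0.78, -0.58 and -1.01 over 304 genes, and at 5000 bases or more -0.61, 0.10 and -0.78 over 20. These genes had to average under 500 in e398, a choice that favours lower ratios. Within wild type, libraries 4 to 6 over libraries 1 to 3 gave median ratios of -0.14, 0.89, 1.21, 0.50 and 0.36 in the first 5 classes, the last of them with 14 genes, for genes with averages of 2 to 8. Against the same wild-type column, the share lower went from 31.2% in the shortest to 18.2% in the longest class for u74, and from 50.2% to 10.9% for u218. The median ratio went from 0.13 to -0.36 for u74 and from -1.01 to -0.34 for u218, beside -0.33 to 0.19 for e398. Between these classes the u74 median thus fell where the e398 median rose. The part of RNA length or library preparation in this was not tested.

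**Figure D4:**
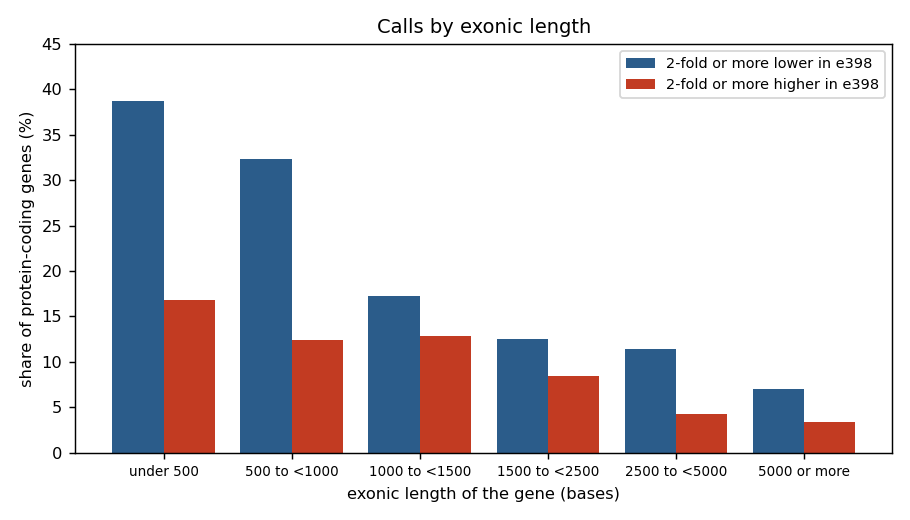
Share of protein-coding genes (vertical axis, percent) at least 2-fold lower (blue) or higher (red) in e398, by exonic length of the gene (horizontal axis, bases). The lower share goes from 38.7% under 500 bases to 7.01% at 5000 bases or more.

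Cuticle and moulting genes were higher for some members and lower for others. Of 136 collagens named col, 48 were higher and 18 lower (median 0.18). Of 7 higher col genes with recovered reads 0 were 2-fold higher in every e398 library, beside 22.2% over all such genes. Of 12 lower col genes with recovered reads 9 were lower in every library, beside 73.2%. The gene col-120 averaged 13111 in wild type and 446396 in e398, and col-184 22295 and 270264. At the other end, col-8 averaged 4088 and read 13.1, 27.9 and 86.2 in the e398 libraries. Collagens whose mutants change body shape had 6 of 14 members higher and 0 lower, with a median of 0.91. Among them were bli-6 at 106920.0 and 569797 and dpy-4 at 283815 and 883716. The 6 annular furrow collagens were neither higher nor lower, with ratios from -0.76 for dpy-3 to -0.18 for dpy-8. Of 74 hedgehog-related and patched-related genes, many of them epidermal, 20 were higher and 9 lower, wrt-8 at 4959 and 56086 and grl-16 at 124191 and 573792. The patched-related gene ptr-19 averaged 408 and read 26.3, 8.21 and 21.03. Of 33 astacin metalloprotease genes 8 were higher and 6 lower, with nas-22 at 292 and 4980.1 and nas-17 at 67.99 and at 0 in all 3 libraries. With recovered reads, 0 of 2 higher and 4 of 6 lower hedgehog-related and patched-related genes were so in every library. For astacin genes the counts were 0 of 3 higher and 5 of 5 lower. Of 14 heterochronic genes, which time larval stages, 4 were lower and 0 higher. Among them lin-28, an RNA-binding regulator of early larval fates, averaged 983 and read 129, 243 and 118, and lin-41, which acts late in larval life and in oocytes, was at 5174 and 751. The part of developmental timing within the L4 stage in these values was not tested.

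Intestinal and defence families held both directions. Of 13 intestine marker genes 2 were higher and 0 lower, cpr-6, a cathepsin B-like protease gene, at 87171 and 365671 and elt-7, a GATA factor gene, at 2320.4 and 6538. C-type lectin genes were higher in 38 and lower in 38 of 170 cases, 22.4% each, beside 11.4% and 19.9% of all genes. With recovered reads, 34 of 36 lower ones were lower in every library, beside 73.2% over all such genes. For example, clec-219 was at 263 in wild type and 2.92, 1.64 and 2.10 in e398. Among higher ones 6 of 15 were so in every library, beside 22.2% over all such genes, and clec-243 read 251, 44.4 and 343 against 14.98. Of 40 O-acyltransferase homolog genes 19 were higher and 1 lower (median 0.80), with oac-10 at 167 and 3778 and oac-24 at 198 and 3350.5. Of 8 higher ones with recovered reads 1 was 2-fold higher in every library. Over the 18 with recovered reads the median ratio was 0.39, -0.10 and 0.10 in the 3 e398 libraries. Of 69 cytochrome P450 genes 9 were higher and 6 lower, cyp-37B1 at 540.3 and 9375, and of 67 UDP-glucuronosyltransferase genes 12 were higher and 5 lower, ugt-4 at 221 and 2817. Both families add polar groups to small molecules, the former by oxidation and the latter by conjugation.

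Lipid and chaperone genes differed in single members. The desaturase gene fat-5 averaged 773 in wild type and read 54.03, 22.998 and 48.4 in e398, and of 16 desaturase and elongase genes 4 were lower and 1 higher. Of 54 beta-oxidation genes 7 were lower and 3 higher. The gene ech-5, an enoyl-CoA hydratase homolog, averaged 1907 and read 70.1, 90.3 and 82.0, evenly low, whereas acdh-2, an acyl-CoA dehydrogenase gene, averaged 3796 and read 64.3, 493 and 12.6. Of 17 genes for protein folding in the endoplasmic reticulum 1 was higher, xbp-1, the transcription factor of its stress response, at 67343 and 177459, and 1 lower, dnj-20, at 17472 and 4305. Of the 8 subunits of the cytosolic chaperonin 2 were lower, cct-8 (11127 and 1204) and cct-3 (12166 and 2428), and the other 6 had ratios above -1, down to -0.62 for cct-2.

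The 20 highest single ratios, among genes with at least 50 normalized counts in either column, included 13 on chromosome V. That chromosome holds 3727 of the 17398 genes considered, more than any other. Of the 11 with recovered e398 reads, 7 were at least 2-fold higher in every library. The gene ZK105.13 was even, at 449.8, 442 and 585 against a wild-type average of 20.4, and its averages in u74 and u218 were 521 and 1006. The gene T11F9.7 read 517, 0 and 654 against 13.1, so library 2 held none of it. It lies within the span of nas-22 on chromosome V, and reads of overlapping genes may be shared. The gene F57E7.2 read 253, 890.4 and 116 against 10.5, highest in library 2.

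Among the 20 lowest ratios, every e398 library read 7.30 normalized counts or less, and 10 of the genes were listed at 0. The gene ZK813.1 averaged 621 in wild type and 0 in all 3 e398 libraries, with 1886 in u74 and 0.587 in u218. The gene F59B2.12 averaged 867 and read 1.46, 1.64 and 6.31, with 88.97 in u74 and 1.95 in u218. Of the 20, 7 lie on chromosome X and 5 on chromosome II, which hold 2429 and 2956 of the 17398 genes considered. The double-stranded noncoding RNA rncs-1, which is known to inhibit Dicer, averaged 623 and read 7.30, 3.29 and 0, with 2345 in u74 and 3342 in u218. It was thus low in e398 and above the wild-type average in both other mutants.

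A test across libraries was possible for the 1238 genes with reads recovered in all 9 libraries and a mean of at least 5, and 36 of them (2.91%) rose in e398 and 0 fell (limma on log2(normalized count + 1), threshold 0.05 on Benjamini-Hochberg adjusted p). Without adjustment 209 passed the same threshold, all higher, and limma voom called 410 rises and 0 falls. Because these genes had to average under 8 in wild type, falls could hardly be called, and the choice favours rises. Every e398 library exceeded every wild-type library for 81 genes (6.54%), and for 25 of the 36. Leaving out e398 library 1, 2 or 3 gave 17, 40 or 13 rises, of which 16, 28 and 13 were among the 36. Leaving out wild-type library 1, 2 or 3 left 21, 21 or 22, and leaving out library 6 gave 76. Against wild-type libraries 1 to 3 alone 402 genes rose and 44 fell, and against libraries 4 to 6 alone 25 rose and 0 fell.

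Of the 36 genes, 10 were called whichever single e398 library was left out and also against wild-type libraries 1 to 3 or 4 to 6 alone. They were F48C1.9, hpo-25, tsp-4, C55A1.7, tsp-5, R08E5.4, F16G10.11, cpr-2, T05B4.8 and F46B3.7. The remaining genes lost the call in at least 1 of these settings. Of the 36, 16 averaged under 5 in wild type, as did 440 of the 1238 tested genes. Such a gene passed the minimum mean only through its e398 libraries, so it had to be higher in e398, and its values are given here as a description with no p. Among the 10 genes named above, C55A1.7 and tsp-5 are of this kind, with wild-type averages of 0.34 and 1.84. The minimum mean was applied anew in each setting. In wild-type libraries 1 to 3, F48C1.9, hpo-25, tsp-4, R08E5.4, F16G10.11 and cpr-2 also averaged under 5, as did F46B3.7 in libraries 4 to 6. In those settings these genes likewise had to be higher in e398 to be tested. Calls of genes of this kind across the settings are therefore no further support. The gene hpo-25 (chromosome II, 2369256 to 2370089, plus strand), found through sensitivity to a bacterial pore-forming toxin, read 0, 7.44, 3.15, 15.1, 0 and 21.2 in wild-type libraries 1 to 6 and 217.6, 286 and 238 in e398. The groups did not overlap, and its e398 libraries were close together. Its log2 ratio was 5.68 ± 0.85 (SE) with a limma adjusted p of 1.48e-08. The gene C55A1.7 (chromosome V, 15646983 to 15647636, minus strand) read 0, 0, 0, 0, 2.04 and 0 in wild type and 54.03, 72.3 and 116 in e398. A total of 1 of its 6 wild-type libraries held any read. Its neighbour by name, C55A1.4, was at 0 in every wild-type library and read 37.97, 31.2 and 16.8 in e398.

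Some called genes differed widely among the e398 libraries and others little. F48C1.9 rose from 7.12 ± 7.84 (SD, n = 6) to 384 ± 346 (SD, n = 3) normalized counts, with libraries at 345, 59.1 and 749 (limma adjusted p = 1.48e-08). Both tetraspanin genes, tsp-4 and then tsp-5, read 81.8, 174 and 75.7 and 52.6, 62.4 and 90.4 in e398, above all wild-type libraries. The gene spig-8 was at 3.32 ± 3.72 in wild type and 79.7 ± 60.3 in e398 (SD, n = 6 and 3), and 6 of the 9 considered spig genes were higher by their averages. The gene B0563.9 read 45.3, 42.7 and 58.9 against 3.29, 0, 0.63, 3.77, 8.17 and 0, and R08E5.4 read 46.7, 73.9 and 114 against 5.49, 0, 0, 0, 12.3 and 21.2. For nhr-290, a nuclear hormone receptor gene, the 3 e398 libraries read 301, 8.21 and 145, with library 2 inside the wild-type range of 0 to 16.4. For K02E2.7 library 2 was also the lowest of 73.0, 16.4 and 217. In wild type tsp-5, spig-8, B0563.9 and K02E2.7 averaged under 5, so they had to be higher in e398 to be tested. Over the 36 genes, library 2 was the lowest of the e398 libraries for 18.

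Of 17 tested chemoreceptor genes 3 rose by limma, srb-1, srw-9 and srh-207, against 2.91% of all tested genes. They read 11.7, 22.998 and 77.8 for srb-1, 30.7, 45.996 and 21.03 for srw-9 and 42.4, 6.57 and 92.5 for srh-207 in e398. The wild-type maxima were 12.7, 34.0 and 5.65, so the groups overlapped for srb-1 and srw-9. Both srb-1 and srh-207 averaged under 5 in wild type. Both tested tetraspanin genes, 1 of 3 C-type lectin genes (clec-58), 1 of 2 F-box genes (fbxb-53) and 1 of 2 infection response genes (pals-2) rose. Of these, tsp-5 and fbxb-53 also averaged under 5 in wild type (1.84 and 2.69). Like srb-1 and srh-207, they had to be higher in e398 to be tested. The gene pals-2 was uneven, at 61.3, 3.29 and 168.

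**Figure D5:**
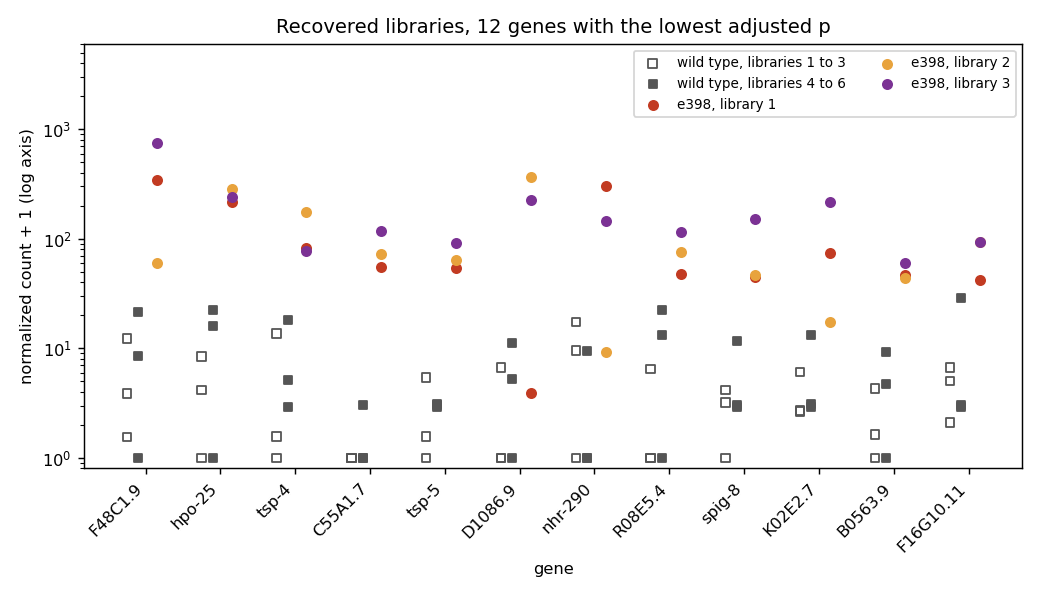
Normalized count + 1 (vertical axis, log scale) in each recovered library for the 12 genes with the lowest limma adjusted p (horizontal axis); squares are wild-type libraries, open for 1 to 3 and filled for 4 to 6, and coloured circles are the e398 libraries. For 10 of the 12 every circle lies above every square; D1086.9 and nhr-290 each have 1 e398 library within the wild-type range. C55A1.7, tsp-5, D1086.9, spig-8, K02E2.7 and B0563.9 averaged under 5 in wild type. They had to be higher in e398 to be tested, so their separation is description only.

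Neighbouring genes differed together at 17 places where at least 4 considered genes in a row were all at least 4-fold lower (13 runs) or higher (4 runs), 80 genes in all. One lower run on chromosome III held the toxin gene sup-35 and its antidote pha-1 (chromosome III, 11131775 to 11136688, plus strand) with Y48A6C.4 and linc-76 between them. The gene pha-1 averaged 445 in wild type and read 30.7, 82.1 and 52.6 in e398, with averages of 694 in u74 and 1969 in u218. For sup-35 the wild-type average was 393 and the e398 libraries read 64.3, 50.9 and 52.6. Both were evenly low in e398. A run on chromosome I held the lectin genes clec-95, clec-96, clec-97 and clec-99, with clec-96 at 58.8 and 0. A run on chromosome X held Y62H9A.3, Y62H9A.4, Y62H9A.5 and ule-5, the last for a protein of the uterine lumen, at 1424 in wild type and 30.7, 0 and 69.4 in e398. Another on X held ZK813.1, ZK813.2, ZK813.3 and ZK813.7, with ratios from -9.28 to -3.14, and one on chromosome II held 6 genes from C16C8.26 to Y49F6B.20, of which 4 were at 0 in e398.

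The 4 higher runs were of other kinds. On chromosome IV, 8 piRNA loci of 21 bases between 17183863 and 17185235, inside the span of the protein-coding gene C52D10.3, had ratios from 3.05 for 21ur-2624 to 3.51 for 21ur-843. C52D10.3 itself was at 5075 and 5768. Which RNAs gave the counts over these loci was not tested. Also on IV, cld-1 was at 79.3 and 529 and dod-21, a gene of the DAF-16 target class, at 60.7 and 588, beside 2 identifiers both named srlf-6. On chromosome V, T05B4.8, T05B4.9 and T05B4.10 adjoined phat-5, a pharyngeal gland mucin-like gene, at 111 and 1604. Gene families that lie side by side can share reads, and the part of this in the runs was not tested.

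Among noncoding classes, ncRNA and piRNA loci were more often higher than lower, and pseudogenes were not. Of 304 loci annotated as ncRNA 94 were higher and 21 lower (median 0.73), and of 135 piRNA loci 45 were higher and 1 lower (median 0.69). Of 697 pseudogenes 110 were higher and 147 lower, and of 86 lincRNA genes 13 were higher and 12 lower. Ribosomal RNA took 1.87% of the wild-type total and 2.22% of the e398 total. By chromosome the share of lower genes ran from 13.3% on X to 24.7% on III, and the share of higher genes from 7.45% on III to 15.4% on V.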

How the data were processed

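Transcript levels came from polyA RNA-seq of whole L4 animals, 6 wild-type and 3 e398 libraries. The deposited signal is 1 average of normalized counts per gene and genotype, made by the authors; that read counts were divided by size factors was read from the repeated steps of the values. Per the submitters' processing notes the tools included HTSeq, bedtools, DESeq2 and DESeq. The aligner, the genome build and whether counting used strand are not stated there, so overlapping and near-identical genes may share reads. Names, positions and exonic lengths came from WBcel235, Ensembl release 115, which matched all 46926 identifiers.

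Ratios used a pseudocount of 1. The text names mec-8 and 4 described targets, the 20 highest and the 20 lowest ratios (average of 50 or more), the 12 lowest limma adjusted p, the 10 most abundant genes of each column, extreme and abundant members of each list, and runs of 4 neighbours; other called genes, general markers, smaller examples and C52D10.3 were picked after their values were seen. Members, lists and tests were chosen with earlier results of these data known, and 2 list patterns were corrected after matching.

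An average is the mean of whole reads divided by size factors, so low values have few possible sources. Of nonzero wild-type averages under 8, 100% of 9926 had 1 solution, and of e398 averages under 500, 99.98% of 17156 did. Shifted test values had a solution in 0.10% and 0.65% of cases. The limit of 500 was set after values were seen. Recovered libraries carry no replicate numbers. Genes with all 9 libraries recovered and a mean of at least 5 were tested with limma 3.58.1 (trend, R 4.3.3; checked on simulated counts) on log2(normalized count + 1), with Benjamini-Hochberg adjustment over all genes tested. The p-values measure only the spread between these samples. Alternatives changed the pseudocount, minimum, centring, gene class, test and libraries. Python 3.11.15 and pandas 2.3.3 were used. Sequences of genes were not used here.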

Additional observations from a re-analysis of the deposited data

Results flagged for a closer look

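For 4 of the 12 genes with the lowest limma adjusted p, the highest of the 6 wild-type libraries stood far from the rest, with a gap to the next library that exceeded Dixon's 95% limit for 6 values. For C55A1.7 it was 2.04 normalized counts and every other library was at 0. For spig-8 it was 10.6, with the next library at 3.15, and for K02E2.7 it was 12.3, with the next at 5.04. For F16G10.11 it was 27.6, with the next at 5.67. Dixon's limit assumes normally distributed values. These are counts near 0 from libraries of unlike size factor, so its error rate does not apply. All 4 values that stood apart lay in libraries 4 to 6, the set with the smaller size factors. All e398 libraries of these 4 genes lay above the wild-type value that stood apart. However, C55A1.7, spig-8 and K02E2.7 averaged under 5 in wild type and had to be higher in e398 to be tested.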

How the results depend on the processing

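Lower counts at 2-fold and 4-fold, and higher counts under other pseudocounts, minimum, centring and gene class, stayed within 1.5 times their main values. Without the filter on low values 4003 genes were 2-fold higher and 655 were 4-fold higher, among 29778 genes. Over the 7758 genes with recovered e398 reads, leaving out each e398 library in turn, an alternative chosen after seeing the data, gave 828 to 1046 higher and 2353 to 2802 lower genes. Of 574 medians over 82 lists and alternatives, 7 changed sign, all of lists with a median within 0.08 of 0: synaptic, cuticlin and beta-oxidation genes under each of both centrings, and infection response genes without the filter. In that last setting 1 median moved by 1.5-fold or more. Among 682 named genes 10 ratios changed sign under at least 1 centring, each within 0.06 of 0, and 107 moved that far with a pseudocount of 10 and 26 with 0.5. The limma count of 36 rises was sensitive. It became 410 with voom, 63 with a pseudocount of 10, 14 of 11381 genes with no minimum mean and 0 of 429 where both averages were under 8 (0 at unadjusted p under 0.05). Against wild-type libraries 1 to 3 alone it was 402 rises and 44 falls, and against libraries 4 to 6 alone 25 rises, 24 of them among the 36. Leaving out 1 library gave 13 to 76 rises and 0 falls. The 429 leave out every gene with an e398 average of 8 or more, and the lowest among the 36 was 27.7; for the other settings the cause was not tested. No paired analysis was possible because the recovered libraries carry no replicate numbers. Depth limits the test to genes low in wild type, so falls of abundant genes have no replicate check.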

Other observations

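Further gene families held differences in both directions. Of 56 transthyretin-related genes 17 were lower and 9 higher; ttr-42 was at 115.2 in wild type and 0 in e398, and ttr-34 at 1862 and 13828. Of 65 genes with MATH or BTB domains, which include substrate adaptors of ubiquitin ligases, 23 were lower and 7 higher. Of the 22 lower ones with recovered reads, 17 were so in every library, a share like the 73.2% over all such lower genes. Of 154 F-box genes 24 were higher and 22 lower. Of 65 pharyngeal cuticle genes of the abu and pqn families 17 were lower and 6 higher, with abu-12 at 14633 and 115472 and abu-4 at 194 and 7.56.

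Of 43 TWK potassium channel genes 2 were higher and 2 lower. Of 74 ligand-gated channel genes 9 were higher and 4 lower, with acr-6 at 26.6 and 102 and lgc-42 at 84.5 and 15.9. Of 215 nuclear hormone receptor genes 22 were higher and 9 lower. The highest ratios were those of nhr-290 and nhr-38, and nhr-38 was uneven, at 20.4, 21.4 and 763 in the 3 e398 libraries against a wild-type average of 16.3.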
